A study of Mus musculus with 6 samples.

Results

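P2rx7 and 9 further genes of purinergic signalling were examined in haematopoietic stem cells (HSCs) of obese and lean mice. They were P2rx7, P2rx4, P2rx1, P2ry14, P2ry1, P2ry12, Entpd1, Nt5e, Adora2a and Adora2b, 10 of the 23955 gene symbols in the deposited table. The set was chosen by symbol, but it was built around P2rx7, which was selected on its db/db against WT values in these same libraries. The genotype difference of the 10 genes is therefore given as a description, and the p-value of a single member is not printed. Members under a p limit in the fit over all genes are counted below, and those counts support nothing about them.

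The cells were lineage-negative Sca-1+ c-Kit+ marrow cells that carried CD150 and lacked CD48, sorted at 20000 cells per library from 4-month-old C57BL/6 mice. One group was db/db, homozygous for a mutation of the leptin receptor gene that removes its long signalling form and makes the animals obese, and the other was WT littermates. Each of 3 experiments gave 1 db/db and 1 WT library, so n = 3 per group, and replicate numbers name the experiment. All cells of db/db mice carry the mutation, so obesity and the loss of the receptor cannot be told apart. RNA was amplified before sequencing as pairs of 75 nucleotides. Values are TPM, an abundance per transcript length scaled to a fixed total, and read depth is unknown.

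Cells release ATP and other nucleotides when they are stressed, damaged or activated, and neighbouring cells read them through surface receptors. The P2X receptors are ATP-gated cation channels, the P2Y receptors are G-protein-coupled receptors for ADP, ATP, UTP or UDP-sugars, and the adenosine receptors read the end product. The enzymes CD39, encoded by Entpd1, and CD73, encoded by Nt5e, stand between them, since CD39 cuts ATP and ADP to AMP and CD73 cuts AMP to adenosine. P2X7 needs more ATP than the other P2X channels, and prolonged opening lets potassium leave the cell, which in macrophages drives the inflammasome and release of interleukin-1. In blood, nucleotide receptors are known best from platelets, lymphocytes and macrophages, and P2Y14 has been described on primitive haematopoietic progenitors of human and mouse.

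P2rx7 and P2rx4 are neighbours on chromosome 5 and lie on the same strand, P2rx7 upstream. P2ry14, on chromosome 3, was the other receptor gene of the set that was higher in db/db in every experiment. The 250 bases before the first listed start of each are shown so that promoters of these genes can be read side by side. P2rx7 is the gene of the set with the widest genotype difference, and P2rx4 is its neighbour. They come from RefSeq on GRCm38.p6, at chr5:122643677-122643926 on the plus strand, chr5:122707294-122707543 on the plus strand and chr3:59153493-59153742 on the minus strand. Capitals mark GGAA or its complement TTCC, the core that ETS factors bind.
P2rx7: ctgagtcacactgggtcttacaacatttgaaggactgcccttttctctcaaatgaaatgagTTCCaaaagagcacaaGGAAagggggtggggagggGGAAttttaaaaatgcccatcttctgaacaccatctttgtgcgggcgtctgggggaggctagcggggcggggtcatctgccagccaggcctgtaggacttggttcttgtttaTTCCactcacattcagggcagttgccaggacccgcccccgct
P2rx4: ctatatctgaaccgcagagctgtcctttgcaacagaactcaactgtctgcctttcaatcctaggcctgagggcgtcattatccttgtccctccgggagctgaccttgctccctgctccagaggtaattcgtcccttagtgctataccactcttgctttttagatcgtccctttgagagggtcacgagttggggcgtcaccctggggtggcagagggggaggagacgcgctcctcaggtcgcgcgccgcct
P2ry14: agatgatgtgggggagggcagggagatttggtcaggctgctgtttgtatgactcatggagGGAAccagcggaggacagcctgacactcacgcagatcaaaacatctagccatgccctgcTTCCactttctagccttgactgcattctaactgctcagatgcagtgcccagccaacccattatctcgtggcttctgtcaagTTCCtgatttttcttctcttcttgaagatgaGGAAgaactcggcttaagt

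The P2rx7 and P2ry14 windows shown above each held 4 of these cores and the P2rx4 window held 0. Of 32851 such windows in the table, 93.4% held at least 1. The letters AATCAC, the core of the site of Gfi1, a repressor named in the title of the series, were searched on both strands. They stood in 0 of the 14 windows listed for 9 of the 10 genes and in 9.14% of all windows, which says only that these letters are not there. TGTGGT, the core of RUNX sites, was also in 0 of the 14 windows and in 14.05% of all. AGATAA, the core of erythroid GATA factor sites, was in 4 of the 14 and in 9.99% of all. The 4 were the P2ry14 window above, another P2ry14 window, the P2rx1 window and that of a second annotated P2rx7 start. P2ry14 had 4 listed windows, so the 14 windows are not separate genes. The table gives 1 value per symbol, so transcripts from the different P2rx7 starts were not separated.

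P2rx7 was at 26.6, 25.3 and 16.7 TPM in db/db replicates 1, 2 and 3, against 4.87, 4.50 and 4.16 TPM in the WT libraries of the same experiments. All db/db libraries lay above all WT libraries, and the WT libraries were within 1 TPM of each other. The means were 22.9 ± 5.39 TPM in db/db and 4.51 ± 0.355 TPM in WT HSCs (SD, n = 3 each), a ratio of 5.07. On the log2(TPM + 1) scale the difference was 2.09 (SE 0.41 in the fit over all genes), with 2.24, 2.26 and 1.78 within experiments 1, 2 and 3. All 3 experiments thus had the same sign. By this difference P2rx7 ranked 21 among the 11931 genes that averaged 1 TPM or more, whose median was 0.18. After median-of-ratios scaling, which sets that median near 0, the P2rx7 difference was 1.91. In bulk RNA a level per cell and the number of cells that express the gene cannot be told apart.

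P2rx4, which encodes a more sensitive ATP-gated channel found in many leukocytes, was at 31.6, 21.8 and 41.2 TPM in db/db and 27.4, 27.7 and 36.1 TPM in WT libraries. The groups overlapped, and the db/db library was the lower of the pair in experiment 2. The means were 31.5 ± 9.70 TPM in db/db and 30.4 ± 4.98 TPM in WT HSCs (SD, n = 3 each). P2rx1, the fast-desensitising channel of platelets and neutrophils, was at 28.4, 20.9 and 50.4 TPM in db/db and 27.1, 27.9 and 36.1 TPM in WT libraries. Its groups overlapped as well. The log2 differences of 0.02 (SE 0.34) for P2rx4 and 0.05 (SE 0.36) for P2rx1 were below their errors, and their sign changed in 7 and 6 of 15 alternative settings, median-of-ratios scaling among them. The db/db library with the least P2rx7, replicate 3, had the most P2rx4 and P2rx1.

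P2rx4 and P2rx1 lie on different chromosomes, and their TPM values were close in each library, with a ratio of P2rx4 to P2rx1 of 1.11, 1.04 and 0.818 in db/db and 1.01, 0.994 and 1 in WT libraries. Of the remaining channel genes, P2rx6 was at 0.86, 1.5 and 1.22 TPM in db/db and 0.96, 2.05 and 2.4 TPM in WT libraries. P2rx2 and P2rx3 did not exceed 0.59 TPM in any library, and P2rx5 was listed at 0 throughout. The P2X message of these cells came mainly from P2rx1, P2rx4 and P2rx7. P2rx7 made up 30.4%, 36.1% and 15.2% of the summed P2X TPM in db/db and 8.07%, 7.22% and 5.27% in WT libraries. The sum itself was 87.5, 70.1 and 110 TPM in db/db and 60.3, 62.4 and 78.9 TPM in WT libraries. In db/db replicate 2, P2rx7 was the highest of the 3 channel genes, at 1.16 times P2rx4, while in WT libraries it was at 0.178, 0.163 and 0.115 times P2rx4.

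**Figure D1:**
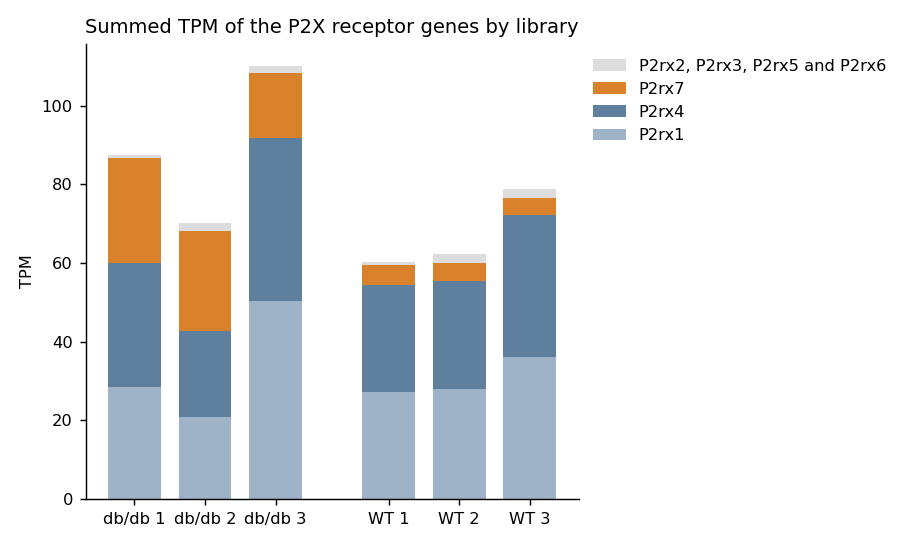
Summed TPM of the P2X receptor genes in each library, stacked by gene, with the 3 db/db libraries left of the 3 WT libraries. The P2rx7 layer is 15.2% to 36.1% of the bar in db/db and 5.27% to 8.07% in WT libraries.

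P2ry14, the receptor for UDP-glucose and related UDP-sugars, was at 13.6, 32.2 and 21.2 TPM in db/db and 5.28, 3.63 and 10.96 TPM in WT libraries. Every db/db library lay above every WT library, though db/db replicate 1 and WT replicate 3 were only a few TPM apart. The means were 22.3 ± 9.33 TPM in db/db and 6.62 ± 3.85 TPM in WT HSCs (SD, n = 3 each), a log2 difference of 1.65 (SE 0.45). Within experiments it was 1.22, 2.84 and 0.89, so experiment 2 gave more than the other experiments. P2ry14 overlaps Med12l, a Mediator kinase-module gene on the opposite strand. The library kit keeps strand per the labels, but whether the counting used it is not given in the sources used here, so reads of the pair may not be separated. Med12l was at 9.97 ± 0.505 TPM in db/db and 8.75 ± 4.21 TPM in WT HSCs (log2 fold change 0.26, SE 0.44, adjusted p = 0.934 by the Benjamini-Hochberg method in limma).

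The ADP receptors were low. P2ry1, which starts platelet shape change, was at 1.05, 1.06 and 9.97 TPM in db/db and 2.18, 0.89 and 2.85 TPM in WT libraries, so the db/db mean of 4.03 ± 5.15 TPM (SD, n = 3) came mainly from replicate 3. P2ry12, the ADP receptor that antiplatelet drugs block, was at 0, 0 and 0.64 TPM in db/db and 0.21, 0.15 and 0 TPM in WT libraries. P2ry12 overlaps Med12l as well. Among the P2Y genes outside the set, P2ry2, a receptor for ATP and UTP, had the highest mean, with 9.04 ± 3.77 TPM in db/db and 10.7 ± 4.31 TPM in WT HSCs (SD, n = 3 each; log2 fold change -0.25, SE 0.45, limma adjusted p = 0.943). P2ry14 made up 46.8%, 70.4% and 40.3% of the summed P2Y TPM in db/db and 28.3%, 21.5% and 33.0% in WT libraries. That sum also holds P2ry10, which counts as P2Y here by name only. P2ry10 was at 1.45, 7.21 and 4.58 TPM in db/db and 1.18, 1.39 and 2.18 TPM in WT libraries.

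Entpd1 was at 9.83, 14.9 and 10.9 TPM in db/db and 8.32, 5.13 and 13.4 TPM in WT libraries. The groups overlapped, and in experiment 3 the db/db library was the lower one. Nt5e was listed at 0.07, 0 and 0 TPM in db/db and at 0 in all WT libraries, so the message for CD39 was present and that for CD73 was at or near 0. Among other enzymes that cut extracellular nucleotides, Enpp1 had the highest mean, with 4.68 ± 1.07 TPM in db/db and 4.21 ± 0.386 TPM in WT HSCs (SD, n = 3 each; log2 fold change 0.11, SE 0.48, limma adjusted p = 0.982). Alpl, a phosphatase that can also make adenosine from AMP, was between 0 and 0.51 TPM in all libraries other than WT replicate 1, where it was 3.43 TPM. Acpp, another phosphatase gene of this list, was at 0.47, 7.17 and 1.96 TPM in db/db and 2.15, 1.66 and 0.97 TPM in WT libraries. It did not pass (log2 fold change 0.37, SE 0.63, limma adjusted p = 0.938).

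Adora2a, the high-affinity adenosine receptor that raises cAMP, was at 29.9, 49.4 and 22.2 TPM in db/db and 16.2, 17.1 and 25.4 TPM in WT libraries. The db/db library was higher in experiments 1 and 2 and lower in experiment 3, and the groups overlapped. Its means were 33.8 ± 14.02 TPM in db/db and 19.6 ± 5.08 TPM in WT HSCs (SD, n = 3 each), a log2 difference of 0.71 (SE 0.37), which was 0.41 without db/db replicate 2. Adora2b, the low-affinity receptor, was at 1.48, 1.29 and 0.69 TPM in db/db and 0.66, 1.5 and 0.26 TPM in WT libraries. Adora2a thus carried 90.5% to 97.5% of the summed adenosine receptor TPM in every library. Adora1 and Adora3 did not exceed 1.34 TPM in any library.

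**Figure D2:**
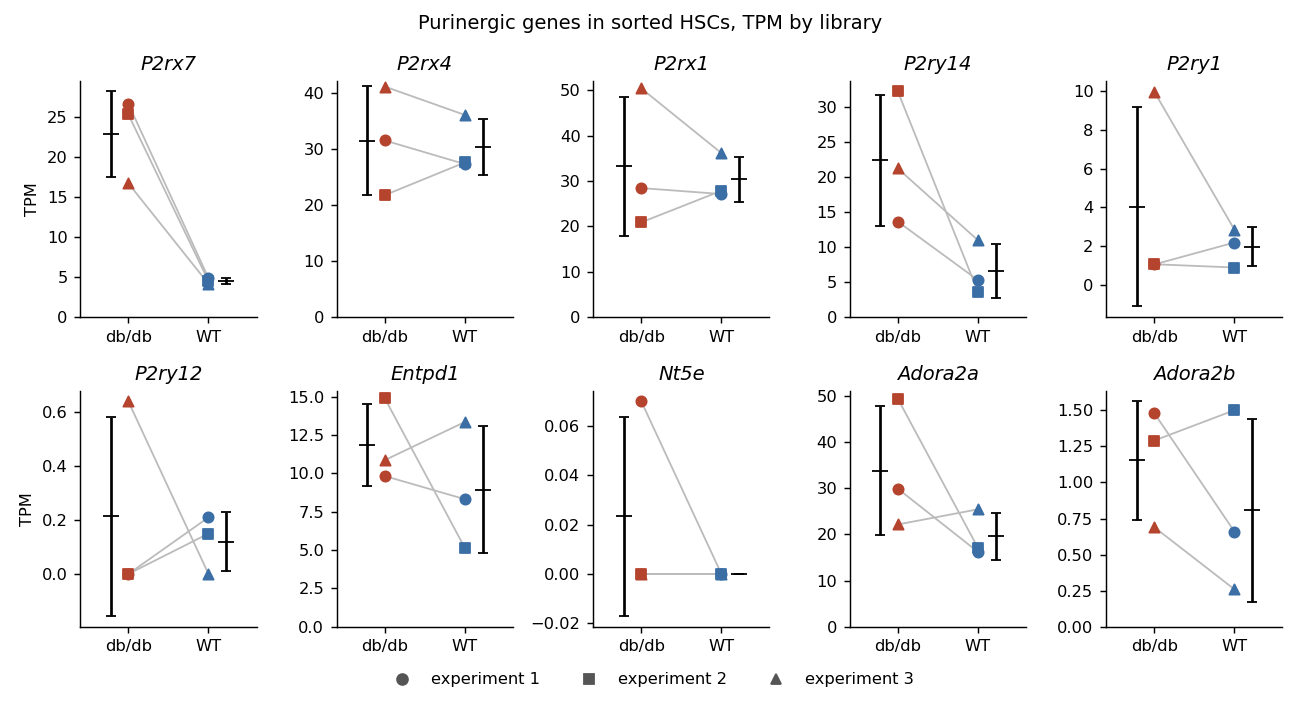
TPM of the 10 genes by library, with db/db left of WT in each panel, grey lines joining the libraries of 1 experiment, and black bars for the mean ± SD (n = 3 per group). P2rx7 and P2ry14 are the 2 genes whose groups do not overlap, with the db/db libraries higher, and Nt5e and P2ry12 lie at or near 0.

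Ordered by mean in db/db HSCs, the genes ran Adora2a, P2rx1, P2rx4, P2rx7, P2ry14, Entpd1, P2ry1, Adora2b, P2ry12 and Nt5e. Each of the first 7 overlapped the next in range, so the order among the leading 5, from 33.8 to 22.3 TPM, is not separated by the spread. In WT HSCs the order was P2rx4, P2rx1, Adora2a, Entpd1, P2ry14, P2rx7, P2ry1, Adora2b, P2ry12 and Nt5e. There P2rx4 and P2rx1 did not differ beyond their spread, both lay above Adora2a in every library, and Adora2a lay above Entpd1 without overlap. P2rx7 was the sixth gene in WT, above P2ry1 without overlap, and the fourth in db/db.

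Of the 10 genes, 7 averaged 1 TPM or more and entered the fit across all genes. Adora2b, P2ry12 and Nt5e fell below that level. In limma with Benjamini-Hochberg adjustment over all genes, 0 of the 7 had an adjusted p under 0.05, where 0.0335% of the 11931 genes did. With the limit of 0.05 set on the unadjusted p, the 7 gave 2 in the db/db-higher direction and 0 in the other, where 4.1% of all genes were higher. The groups did not overlap, with db/db higher, for 2 of the 7 and for 7.85% of all genes, and with db/db lower for 0 of the 7 and for 2.32% of all genes. Both counts of 2 are P2rx7 and P2ry14, which the choice of the set had in view, so nothing is read from them. The median log2 fold change was 0.44 over the 7 genes and 0.18 over all genes. That median is the value of Entpd1, which moved to 0.27 after median-of-ratios scaling, 0.24 after quantile normalization, 0.28 without db/db replicate 2, 0.13 without WT replicate 2 and 0.75 without WT replicate 3. Over all genes the unadjusted limit gave 489 in the db/db-higher direction and 149 in the other, and median-of-ratios scaling made that 297 and 355.

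The genes beside P2rx7 on chromosome 5 were not used to choose the set. Besides P2rx4, the nearest 3 protein-coding genes on each side in GENCODE M21 were Ift81, an intraflagellar transport gene, Atp2a2, the calcium pump of the endoplasmic reticulum, and Anapc7 on one side, and Camkk2, a calcium-dependent kinase, and Anapc5 on the other. In limma, 0 of these 5 passed at an adjusted p under 0.05. Their log2 fold changes ran from 0.02 for Ift81 to 0.56 for Atp2a2 (SE 0.31, adjusted p = 0.919). Camkk2, which overlaps P2rx4 on the opposite strand in RefSeq, was at 8.13, 11.6 and 12.95 TPM in db/db and 4.90, 6.32 and 12.04 TPM in WT libraries (log2 fold change 0.50, SE 0.44, limma adjusted p = 0.920).

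Outside the 10, lists of 8 kinds held 63 further purinergic symbols, of which 61 were in the table, 7 were at 0 in all libraries and 39 were tested. In limma with Benjamini-Hochberg adjustment, 0 of the 39 passed, against 0.0335% of all genes. The unadjusted limit of 0.05 gave 1 of the 39 in the db/db-higher direction, where 4.1% of all genes lay, and 0 in the other. Log2 fold changes were above 0 for 28 of the 39 and for 68.1% of all genes, with a median of 0.25 against 0.18 over all genes, and for 21 of the 39, with a median of 0.06, after median-of-ratios scaling. The db/db libraries lay above the WT libraries without overlap for 7 of the 39 and for 7.85% of all genes, and below them for 0 of the 39 and for 2.32% of all genes. Overlap was judged on unscaled TPM throughout and was not counted again after median-of-ratios scaling. The size factors of that scaling were 0.915, 1.13 and 1.23 in db/db and 0.914, 0.815 and 1.14 in WT libraries. A narrow separation may therefore not hold after scaling.

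Genes for nucleotide release and the partners of the P2X7 pore were expressed in every library apart from Panx3, which was listed at 0. Lrrc8a, the obligate subunit of volume-regulated anion channels, had the highest mean of this list. It was at 77.9, 61.7 and 63.7 TPM in db/db and 52.4, 46.4 and 55.1 TPM in WT libraries, without overlap in unscaled TPM (log2 fold change 0.39, SE 0.29, limma adjusted p = 0.920). Panx1, the pannexin channel that releases ATP, was at 14.6 ± 2.46 TPM in db/db and 14.5 ± 5.83 TPM in WT HSCs (SD, n = 3 each). Ano6, a lipid scramblase that acts downstream of P2X7, was at 34.4, 27.7 and 39.1 TPM in db/db and 25.5, 21.9 and 25.1 TPM in WT libraries, and did not pass (log2 fold change 0.45, SE 0.33, limma adjusted p = 0.920). Of the 8 tested genes of this list, 5 were above 0 in log2 fold change, where 68.1% of all genes were, and 4 after median-of-ratios scaling.

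Genes that take up and break down adenosine numbered 12 tested, of which 10 were above 0 in log2 fold change, where 68.1% of all genes were, and 8 after median-of-ratios scaling. Pnp, purine nucleoside phosphorylase, had the highest mean, with 153 ± 29.5 TPM in db/db and 129 ± 32.7 TPM in WT HSCs (SD, n = 3 each; log2 fold change 0.25, SE 0.27, limma adjusted p = 0.921). Adk, the kinase that returns adenosine to AMP, was at 17.2, 25.2 and 27.2 TPM in db/db and 15.4, 12.3 and 15.6 TPM in WT libraries. Slc28a2, a sodium-coupled nucleoside transporter, was at 28.2, 25.5 and 26.6 TPM in db/db and 20.0, 18.7 and 21.2 TPM in WT libraries. In unscaled TPM the groups did not overlap, with db/db higher, for 3 of the 12, Adk, Slc28a2 and Slc29a1, where 7.85% of all genes did so. These genes did not pass (limma adjusted p from 0.919 to 0.921).

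Among surface enzymes that consume NAD, some of which feed P2X7 in mouse lymphocytes through ADP-ribosylation, Art4, the Dombrock blood group gene, had the highest mean, with 52.7 ± 15.8 TPM in db/db and 50.7 ± 20.5 TPM in WT HSCs (SD, n = 3 each; log2 fold change 0.08, SE 0.34, limma adjusted p = 0.981). Art2b, the transferase known to modify P2X7 on mouse T cells, was at 0, 0 and 9.23 TPM in db/db and 0, 0 and 2.39 TPM in WT libraries, so it was listed above 0 in experiment 3 alone. Cd38, the main NAD-cleaving enzyme of leukocytes, was at 11.87, 11.95 and 11.52 TPM in db/db and 9.80, 2.57 and 8.97 TPM in WT libraries (log2 fold change 0.81, SE 0.47, limma adjusted p = 0.919).

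The inflammasome genes that P2X7 engages in macrophages were present in part. Nlrp3, the sensor, and Il1a were listed at 0 in all 6 libraries, and Il1b did not exceed 1.32 TPM. The adaptor Pycard was at 21.0 ± 8.62 TPM in db/db and 27.0 ± 12.7 TPM in WT HSCs, and the protease Casp1 at 40.0 ± 9.38 TPM in db/db and 29.4 ± 8.47 TPM in WT HSCs (SD, n = 3 each). Gsdmd, the pore-forming gasdermin, had the highest mean of this list, with 54.8 ± 8.48 TPM in db/db and 53.0 ± 5.53 TPM in WT HSCs (SD, n = 3 each; log2 fold change 0.04, SE 0.29, limma adjusted p = 0.993). Adam10, a sheddase, was the 1 gene of the wider lists with an unadjusted p under 0.05. It was at 26.8, 69.1 and 48.9 TPM in db/db and 26.9, 21.9 and 28.0 TPM in WT libraries, equal in experiment 1 to within 1 TPM, and did not pass (log2 fold change 0.80, SE 0.35, limma adjusted p = 0.910). Panx1, Ano6, Adk, Slc28a2, Slc29a1, Art2b, Cd38, Nlrp3, Il1a, Il1b, Pycard, Casp1, Adam10, Alpl, Acpp, P2rx2, P2rx3, P2rx5, Panx3, P2ry10 and Adora1 were named after their values were seen.

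**Figure D3:**
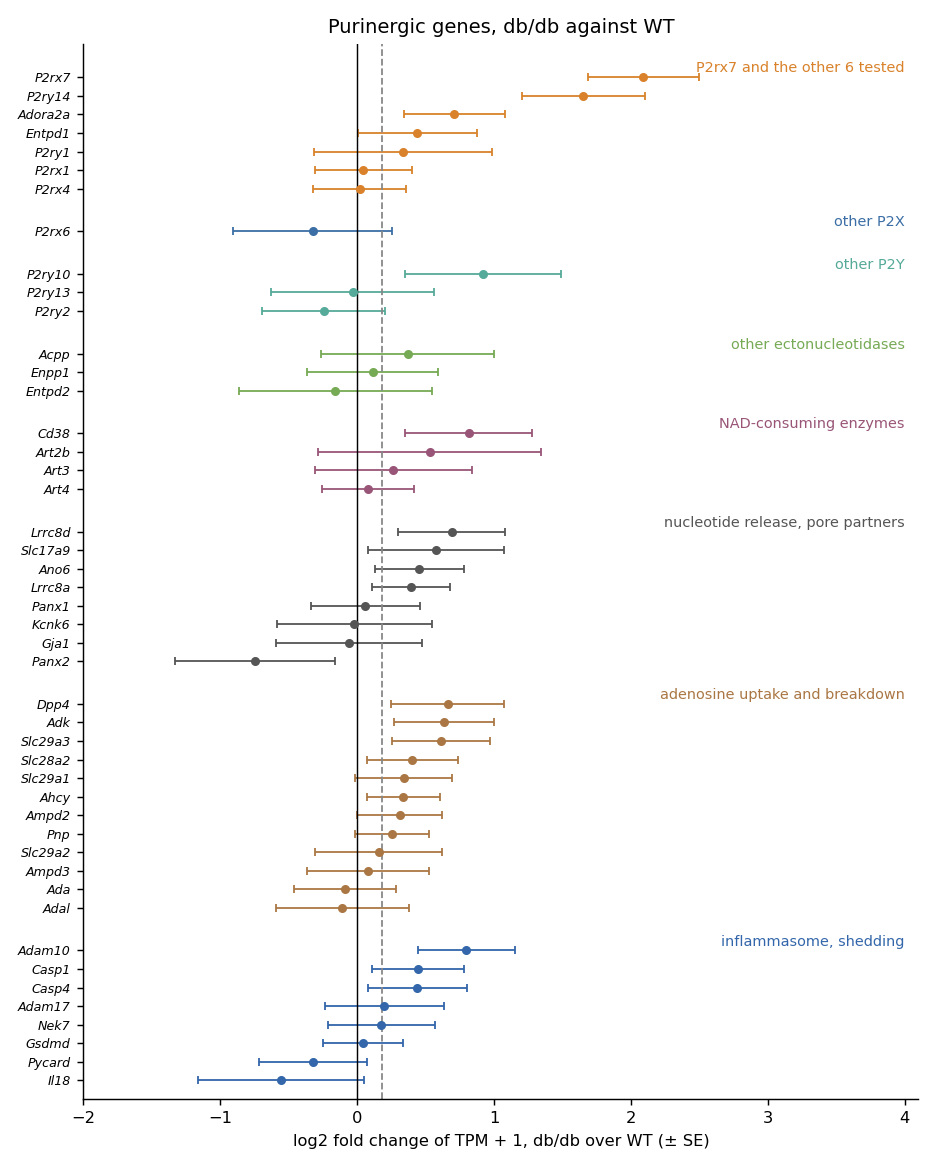
Log2 fold change of TPM + 1, db/db over WT, for the 7 tested genes of the set and the 39 tested genes of the wider lists, as points with SE bars from the fit over all genes (3 libraries per group), with the median of all genes at 0.18 as a dashed line. P2rx7 at 2.09 and P2ry14 at 1.65 lie to the right of all other genes shown, of which P2ry10 at 0.92 and Cd38 at 0.81 come next.

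The genes whose pattern over the 6 libraries was most like that of P2rx7, by Pearson's r of log2(TPM + 1), were Wtap, Rhag, Rlf, Zfp62 and Inf2, with r from 0.985 to 0.990. Since P2rx7 separates the genotypes, such genes do too, and 115 of 11930 genes had r of at least 0.9. Wtap, a subunit of the RNA m6A methyltransferase, was at 29.6, 29.7 and 28.5 TPM in db/db and 21.3, 21.99 and 21.2 TPM in WT libraries. Rhag, an erythroid membrane gene, was at 8.20, 8.56 and 5.86 TPM in db/db and 1.56, 1.71 and 0.91 TPM in WT libraries. By deviations from the genotype means the leading genes were others, Lgals1, Cxx1c, Id3, Ppp1r14a and H2afx, each with r of at least 0.987. By this measure 94 genes had r of at least 0.9. P2rx7 varied little in WT libraries, from 4.16 to 4.87 TPM, so r of deviations rests mainly on the db/db libraries, above all replicate 3. Within the set, r over the 6 libraries was 0.80 for P2ry14, 0.74 for Adora2a, 0.47 for Entpd1, 0.01 for P2ry1 and -0.12 for both P2rx4 and P2rx1. By deviations from the genotype means it was 0.48 for Adora2a, -0.04 for Entpd1, -0.20 for P2ry14, -0.75 for P2rx4, -0.90 for P2rx1 and -0.92 for P2ry1. These values describe 6 libraries that share 3 experiments.

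The markers of the sort were present, all 9 genes of the list, among them Hlf at 326 ± 29.5 TPM in db/db and 257 ± 79.8 TPM in WT HSCs (SD, n = 3 each), and Il7r listed at 0 throughout. In 2 of the 9 the genotypes did not overlap in unscaled TPM, with db/db higher, where 7.85% of all genes did so. The others, Kit and Ly6a among them, overlapped. Slamf1, which encodes the CD150 of the gate, was at 29.01, 38.9 and 24.96 TPM in db/db and 23.99, 11.9 and 17.6 TPM in WT libraries, and Tek was at 19.7, 25.8 and 23.1 TPM in db/db and 19.3, 8.89 and 15.96 TPM in WT libraries (limma adjusted p = 0.919 for both). Cd48, which the gate excludes, was at 9.10, 21.4 and 1.63 TPM in db/db and 5.35, 4.2 and 1.09 TPM in WT libraries. Markers of other marrow cells stand beside the P2rx7 values as follows. The summed TPM of 8 granulocyte genes was 3913, 2007 and 1472 in db/db and 4600, 533 and 462 in WT replicates 1, 2 and 3. The sum was higher in WT in experiment 1 and higher in db/db in experiments 2 and 3. P2rx7 in the same libraries was at 26.6, 25.3 and 16.7 TPM in db/db and 4.87, 4.50 and 4.16 TPM in WT. The sum of 10 monocyte and macrophage genes was 58.9 to 112 TPM in db/db and 28.2 to 92.3 TPM in WT libraries, of which Cd68 made up 24.2 to 69.7 TPM over the 6 libraries. C1qb reached 23 TPM, in WT replicate 1, and Csf1r reached 2.44 TPM, while Cx3cr1, Ccr2 and Fcgr1 did not exceed 0.19 TPM. Within that list, Ly6c2 was at 21.97, 68.6 and 18.9 TPM in db/db and 17.9, 3.43 and 1.32 TPM in WT libraries, without overlap (log2 fold change 2.45, SE 0.59, limma adjusted p = 0.327).

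Some erythroid and mast cell genes separated the genotypes as P2rx7 did. The sum of 8 erythroid genes was 286 to 1375 TPM in db/db and 71.7 to 140 TPM in WT libraries without overlap, most of it Hbb-b2. Hbb-b2 was the 1 erythroid gene of 5 tested that passed, with 706 ± 571 TPM in db/db and 74.5 ± 17.6 TPM in WT HSCs (SD, n = 3 each; log2 fold change 2.93, SE 0.39, limma adjusted p = 0.000688). Of 5 mast cell and basophil genes, Cpa3 was at 15.0, 11.4 and 5.01 TPM in db/db and 1.88, 2.41 and 0.67 TPM in WT libraries (log2 fold change 2.06, SE 0.53, limma adjusted p = 0.334). The defining Mcpt8, Prss34 and Ms4a2 were at 0 in every library, and Fcer1a was at 0 in all but WT replicate 2, where it was 0.52 TPM. The sum of 9 megakaryocyte and platelet genes was 519 to 806 TPM in db/db and 416 to 678 TPM in WT libraries. The T and NK cell sum of 9 genes was 13.3 to 16.8 TPM in db/db and 9.37 to 20.3 TPM in WT libraries, most of it Lck at 4.69 to 9.76 TPM and Klrb1c at 3.12 to 11.42 TPM over the 6 libraries, with Cd3e, Cd3g, Cd2 and Ncr1 at 0 throughout. Both of these sums overlapped between the genotypes. Of the 8 tested megakaryocyte and platelet genes, 2 did not overlap in unscaled TPM, with db/db higher, where 7.85% of all genes did so. Others went the other way, with log2 fold changes of -0.35 (SE 0.42) for Gp5, -0.47 (SE 0.47) for Gp1bb and -0.45 (SE 0.35) for Vwf. The 2 without overlap were Itga2b and Gp1ba. Itga2b was at 29.3, 39.2 and 28.6 TPM in db/db and 17.2, 20.8 and 22.99 TPM in WT libraries (limma adjusted p = 0.919), and Gp1ba was at 9.9, 19.3 and 23.1 TPM in db/db and 6.23, 9.53 and 6.99 TPM in WT libraries (limma adjusted p = 0.883). The sum of 6 B cell genes was 28.8 to 60.7 TPM in db/db and 32.7 to 61.2 TPM in WT libraries, nearly all of it Cd79b, with Ms4a1, Pax5 and Ebf1 at 0. The sum of 5 dendritic cell genes was 2.69 to 11.1 TPM in db/db and 2.68 to 6.54 TPM in WT libraries, with Siglech and Itgax at 0. The B cell and dendritic cell sums overlapped as well. The part of the granulocyte, monocyte, erythroid, mast cell, megakaryocyte and CD150 signals in the P2rx7 difference was not tested.

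**Figure D4:**
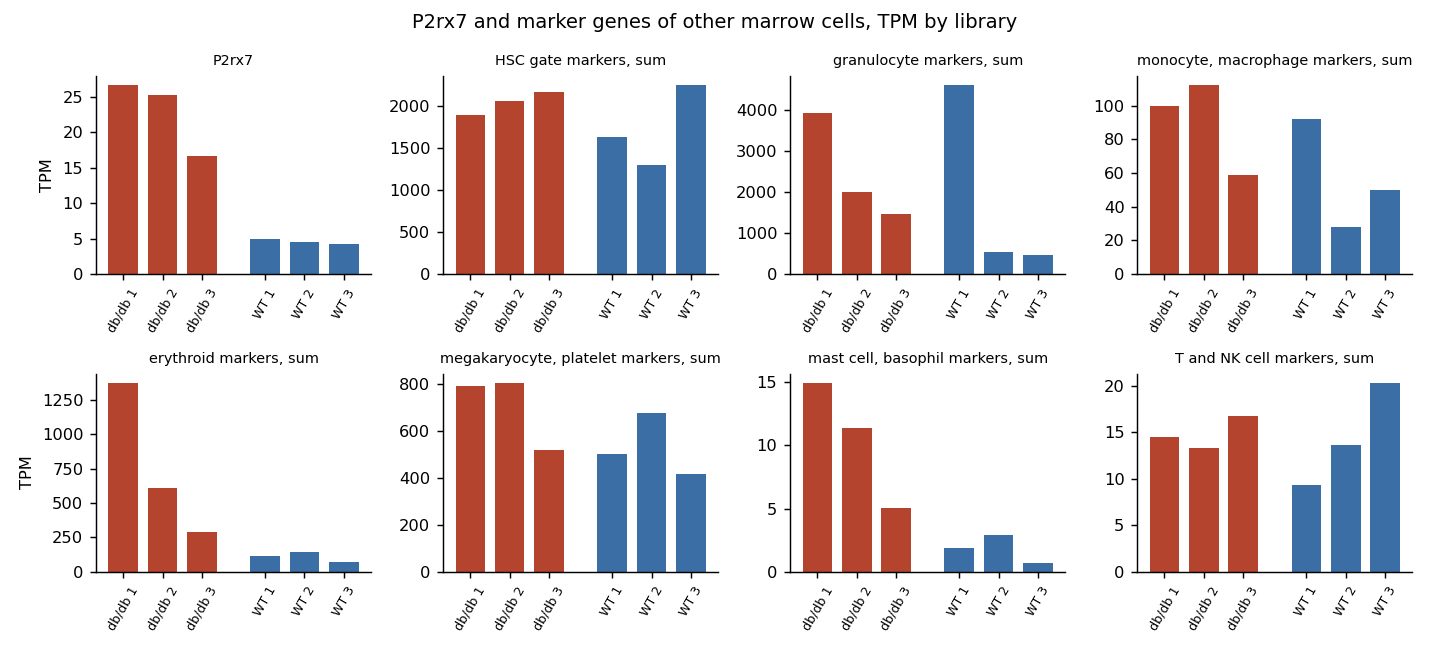
TPM of P2rx7 and summed TPM of marker lists by library, with the 3 db/db libraries left of the 3 WT libraries and each panel on its own axis from 0. P2rx7, the erythroid sum and the mast cell and basophil sum separate the genotypes. The granulocyte sum is highest in WT replicate 1 at 4600 TPM and is higher in db/db in experiments 2 and 3.

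Gfi1, the gene in the title of the series, was at 11.8, 17.3 and 10.2 TPM in db/db and 1.99, 3.88 and 4.75 TPM in WT libraries. Lepr, the mutated gene, was at 1.51, 2.44 and 2.04 TPM in db/db and 2.34, 2.93 and 2.79 TPM in WT libraries, and a total over isoforms does not check the genotype.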

How the data were processed

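Deposited values were TPM per gene symbol. The submitters' processing notes name RSEM, Bowtie2 and mm9 as what the authors used, while versions, annotation and strand setting are not given in the sources used here. TPM keeps no read depth, so no counting interval was possible, and the error is the spread between libraries. Whether a library held 1 mouse or several is not labelled, so p-values measure the spread between these samples.

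Genotypes were compared on log2(TPM + 1), a scale that understates changes of low genes, by limma 3.58.1 (R 4.3.3) over the 11931 genes that averaged 1 TPM or more, with a trend, two-sided, with Benjamini-Hochberg adjustment over all of them. The members, gene lists and alternatives were chosen with earlier results of these data known. Named genes were the members, the most abundant gene of each wider list and any with an unadjusted p under 0.05 and 1 sign in all experiments, of which there were 0, the 5 genes most like P2rx7 by each measure, its neighbours, genes overlapping a member, Gfi1 and Lepr.

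The fit was repeated with a replicate block for the experiment, without the trend, after quantile normalization or median-of-ratios scaling, with a filter at 5 TPM or none, with pseudocounts of 0.5 and 0.1, and leaving out each library. Median-of-ratios scaling with the block was added after the values were seen. The labels give each experiment number to 1 db/db and 1 WT library, which is the pairing used for differences within experiments and for the block. The main fit, which gave the printed SE and adjusted p, had no term for the experiment. Deviations of paired libraries correlated across genes at 0.04, 0.01 and 0.16. Those of unpaired libraries ran from -0.12 to 0.08, so the pairs of experiments 1 and 2 did not stand out. Promoter windows came from RefSeq on GRCm38.p6, and gene order from GENCODE M21. No coordinates were joined to the mm9 values.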

Additional observations from a re-analysis of the deposited data

How the results depend on the processing

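The P2rx7 difference was positive under all 15 alternatives, from 1.89 with quantile normalization to 2.29 without db/db replicate 3, and was 2.09 with the replicate block. P2ry14, Adora2a and Entpd1 were higher in db/db under each of the 15. P2ry1 changed sign without db/db replicate 3, where it was -0.47. Under every alternative 0 members and 0 genes of the wider lists passed at an adjusted p under 0.05 in limma. At an unadjusted p under 0.05, between 2 and 3 members and between 0 and 4 genes of the wider lists did. Over all 11931 genes the unadjusted limit gave from 395 without WT replicate 2 to 1098 without db/db replicate 1. The members were chosen with this contrast in view, so nothing is read from their count. The count of genes that passed over the whole table was 4. It was 0 without a filter or without the trend, 1 under median-of-ratios scaling or quantile normalization, and 6 with the replicate block, and the block changed no other call. With single libraries left out it ran from 0 without db/db replicate 2 to 16 without WT replicate 1. Of the 5 genes most like P2rx7, 2 were still among the leading 5 after median-of-ratios scaling and 0 to 2 with 1 library left out, 0 of them without db/db replicate 1. Values near 0 TPM cannot be told from absence, because the depth is unknown.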
